A study of Rattus norvegicus with 12 samples.

Results

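The neurotrophin ligands brain-derived neurotrophic factor (Bdnf) and neurotrophin-3 (Ntf3), the receptors TrkB (Ntrk2), TrkC (Ntrk3) and p75 (Ngfr), and the secreted peptide precursor Vgf were followed in the ventral dentate gyrus of male rats. These 6 genes were taken by their symbols from the 17172 genes with deposited read counts, and all 6 passed the filter on low counts. The rats were Sprague-Dawley in origin, per the labels, and belonged to a depression-prone line, the Flinders Sensitive Line (FSL), or to its comparison line, the Flinders Resistant Line (FRL). The design asks how the lines differ, and how FSL rats called responders or non-responders to L-acetyl-carnitine (LAC), a dietary acetyl donor with reported antidepressant action, differ from untreated FSL rats and from each other.

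The 12 libraries formed 4 groups of 3. LAC responders and LAC non-responders were FSL rats that drank LAC at 0.3% (w/v) in tap water for 7 days, about 210 mg/kg per day. FSL vehicle and FRL vehicle were FSL and FRL rats that drank tap water only. What separated responders from non-responders, the age of the rats and the number of rats behind each library were not stated in the labels. FSL and FRL are selectively bred lines, so a difference between them is one of line and not of a single gene.

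Neurotrophins are made as proneurotrophins that proteases cut to the mature form. Mature Bdnf acts mainly through Ntrk2 and Ntf3 mainly through Ntrk3, which are receptor tyrosine kinases that signal through the MAP kinase, PI3 kinase and phospholipase C pathways. Ngfr binds all neurotrophins and, together with sortilin, binds the uncleaved forms, with opposite effects on neuron survival. In the rodent hippocampus, neuronal activity raises Bdnf transcription through several alternative promoters, and Vgf, a granin-like peptide precursor, is induced by activity and by neurotrophins.

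Promoter letters are shown for Bdnf and Vgf because the cAMP response element (CRE), the site bound by the activity-regulated factor CREB, is a textbook feature of the control of both genes. RefSeq promoter windows on the GRCr8 assembly, each covering 250 bases before to 50 after an annotated start, were found for 3 of the 6 genes: 6 windows for Bdnf, 3 for Ntf3 and 1 for Vgf. Windows of Ntrk2, Ntrk3 and Ngfr were not used here. Of each window printed, the 250 bases before the start are given 5′ to 3′ in the direction of transcription. Capitals mark the letters of the full CRE TGACGTCA or of its shorter form TGACG, which is CGTCA on the other strand.
Vgf promoter, chr12:25277021-25277270, minus strand: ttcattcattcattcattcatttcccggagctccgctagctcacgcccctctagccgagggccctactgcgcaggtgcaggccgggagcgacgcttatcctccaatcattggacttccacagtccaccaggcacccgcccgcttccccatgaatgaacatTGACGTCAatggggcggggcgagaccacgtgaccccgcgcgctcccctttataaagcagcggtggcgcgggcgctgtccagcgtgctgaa
Bdnf promoter, chr3:116637608-116637857, plus strand: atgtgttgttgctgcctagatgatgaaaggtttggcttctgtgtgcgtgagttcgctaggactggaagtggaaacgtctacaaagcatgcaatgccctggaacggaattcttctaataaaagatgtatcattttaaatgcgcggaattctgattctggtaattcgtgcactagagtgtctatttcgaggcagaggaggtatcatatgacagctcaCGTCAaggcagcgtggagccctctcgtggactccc

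The Vgf window held the full CRE, which is its own reverse complement and contains the shorter form on both strands, with its first base at position -90 from the annotated start. It also held the E-box CACGTG, in lower case above, at position -65. The full CRE was present in 612 of all 33469 windows of the same length (1.83%), and the E-box in 6.42% of them. In Bdnf, 1 of 6 windows, the one shown, held the shorter form, at position -35, and no Bdnf window held the full CRE. A different Bdnf window held the E-box. The shorter form was present in 21.2% of all windows, and none of the 3 Ntf3 windows held any of the 3 motifs. These matches describe letters in a window of an assembly newer than the rn5 build of the counts. They say nothing of factor binding in these rats, and the counts add up all transcripts of a gene, so the use of single Bdnf promoters was not measured.

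Counts in genes numbered 5905387 to 8137618 per library, and levels are given in CPM, the count per M (mega) of counts, on library sizes scaled by the TMM method of edgeR. A count of 3, taken as the floor of detection, corresponded to 0.369 to 0.508 CPM. Counting intervals and this floor cover counting error only. Levels are compared between libraries for 1 gene at a time and not between genes, because no transcript lengths were used. Several libraries stood apart by markers of neighbouring tissue. Granule neuron markers Prox1 and C1ql2 were at 9.19 and 3.31 CPM in responder 1 and at 10.4 and 4.53 CPM in FRL vehicle 2, against 51.6 to 129 and 29.8 to 59.1 CPM in the other 10 libraries. The 14 choroid plexus markers in the files summed to 6835 CPM in non-responder 1, 3747 CPM in FSL vehicle 1 and 456 CPM in FSL vehicle 3, against 15.6 to 80.3 CPM elsewhere. The 14 meningeal and fibroblast markers summed to 3280 CPM in FSL vehicle 3 and 1088 CPM in FSL vehicle 2, against 109 to 722 CPM elsewhere. Thalamic markers summed to 464.5 CPM in responder 1, against 77.3 to 205 CPM in the other 11 libraries. This sum rested on Slc17a6 and Tcf7l2, at 274 and 156 CPM in responder 1 against 31.7 to 69.5 and 6.67 to 20.45 CPM elsewhere. The listed markers Prkcd, Zic1, Lef1, Rgs16 and Gbx2 lay in responder 1 within the range of the other 11.

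None of the 6 genes passed the threshold in any comparison. By edgeR's quasi-likelihood test with Benjamini-Hochberg adjustment over 11750 genes, 0 of 6 had an adjusted p under 0.05 in responders against FSL vehicle, where 0% of all genes were called, and 0 of 6 in non-responders against FSL vehicle, where again 0% were called. The count was also 0 of 6 in responders against non-responders, with 0% of all genes called, and in FSL vehicle against FRL vehicle, with 0.0681% called. A joint test of any difference among the 4 groups called 0 of 6, against 0.0255% of all genes, and its adjusted p ran from 0.764 for Ntrk2 to 0.997 for Ntf3. At an unadjusted p under 0.05 the count was still 0 of 6 in every one of these tests, against 13.8% of all genes in responders and 4.21% in non-responders, each against FSL vehicle. The corresponding shares of all genes were 3.14% in responders against non-responders, 13.9% in FSL vehicle against FRL vehicle and 9.02% in the joint test. DESeq2 and limma-voom also called 0 of 6 in each of the 4 comparisons.

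The 3 libraries of a group never lay wholly above or below those of the group it was compared with, for any of the 6 genes. Such separation was seen for 12.5% of all genes in responders against FSL vehicle, 7.8% in non-responders against FSL vehicle, 11.3% in responders against non-responders and 13.8% in FSL vehicle against FRL vehicle. The 2 LAC comparisons and the line comparison all use the same 3 FSL vehicle libraries, so a value of those libraries enters each of them.

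**Figure D1:**
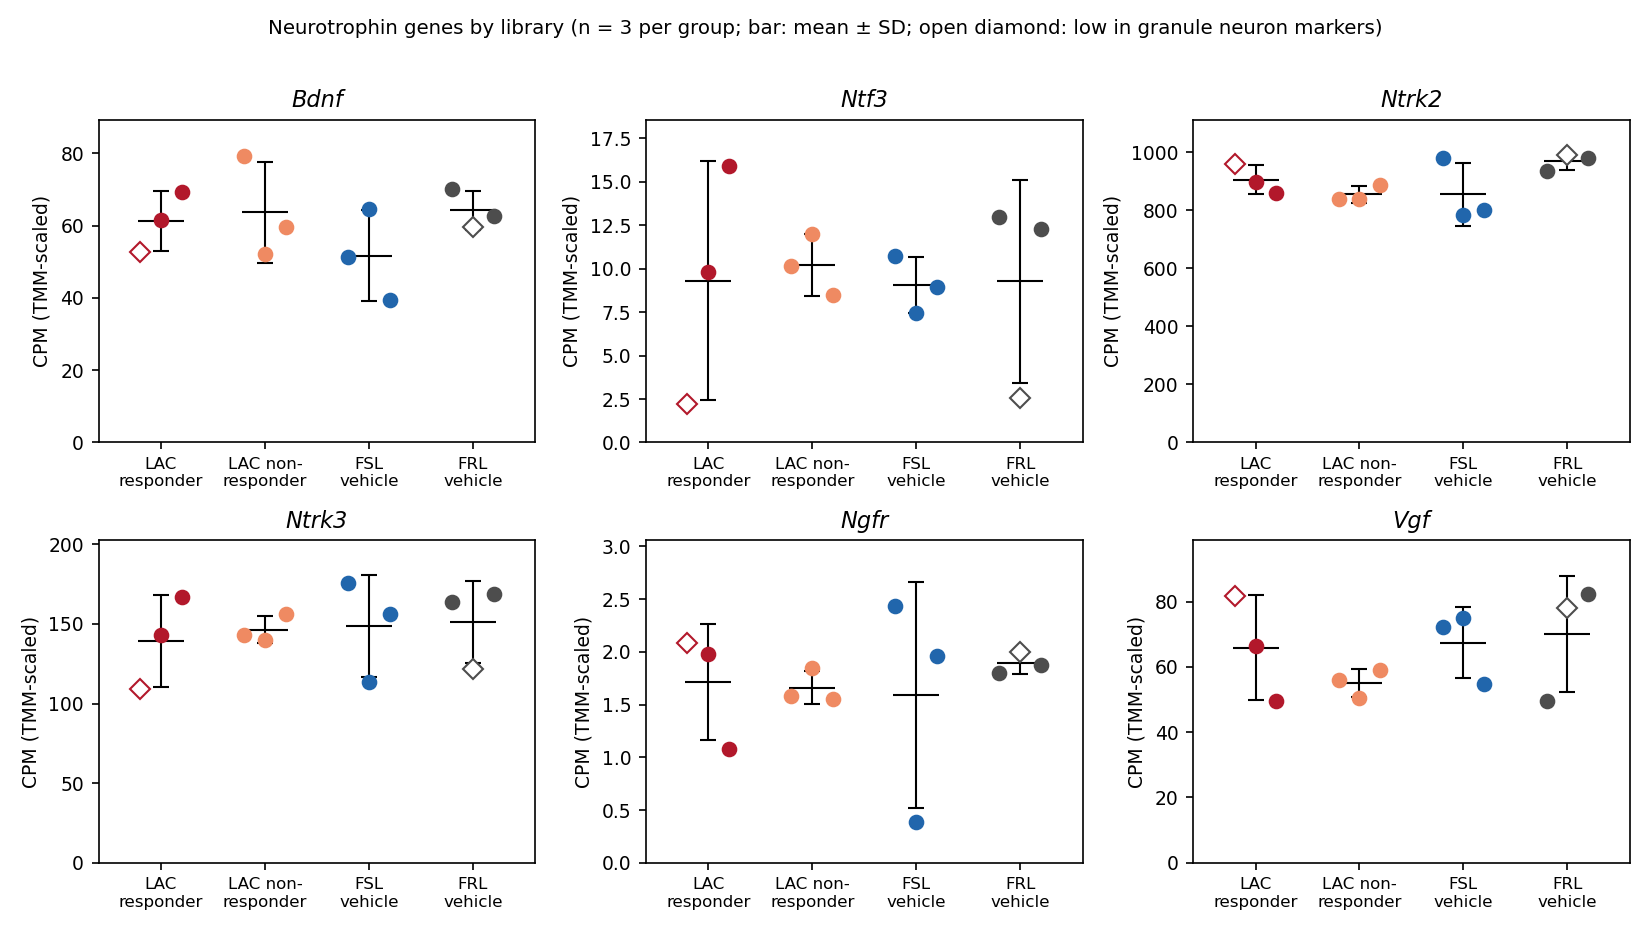
Level of each of the 6 genes in CPM (linear axes from 0), with 1 point per library, open diamonds for the 2 libraries low in Prox1 and C1ql2, and the mean and SD of each group of 3 as a line and bar. The 2 groups of each tested comparison overlap for every gene. For Ntrk2, FRL vehicle lies wholly above non-responders, a pair not compared by a test. The 2 lowest Ntf3 points are responder 1 at 2.2 CPM and FRL vehicle 2 at 2.53 CPM.

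Bdnf, the ligand of Ntrk2, was measured at 52.8, 61.6 and 69.4 CPM in responders 1 to 3 and at 79.2, 52.2 and 59.6 CPM in non-responders 1 to 3. Vehicle libraries had 51.3, 64.5 and 39.3 CPM in FSL and 70.3, 59.7 and 62.7 CPM in FRL. FSL vehicle 3 was the lowest and non-responder 1 the highest of the 12 libraries, and FSL vehicle 2 lay inside the range of the other 3 groups. The means were 61.3 ± 8.29 CPM in responders, 63.7 ± 13.9 CPM in non-responders, 51.7 ± 12.6 CPM in FSL vehicle and 64.2 ± 5.43 CPM in FRL vehicle (SD, n = 3 each). FSL vehicle thus had the lowest mean and FRL vehicle the highest, but each gap between neighbouring means was smaller than the SD of 1 of the pair.

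On the log2 scale, Bdnf was 0.24 ± 0.19 (SE; 95% interval -0.18 to 0.66) in responders over FSL vehicle, adjusted p = 0.594 by edgeR, and 0.30 ± 0.19 (-0.12 to 0.72) in non-responders over FSL vehicle, adjusted p = 0.976. Responders and non-responders differed by -0.057 ± 0.19 (-0.47 to 0.36), adjusted p = 0.992. FSL vehicle over FRL vehicle gave -0.31 ± 0.19 (-0.73 to 0.11), adjusted p = 0.5. These intervals leave room for a Bdnf level up to 1.58 times that of FSL vehicle in responders and 1.65 times in non-responders, and for a level down to 0.602 times that of FRL vehicle in FSL vehicle. The values hung on which libraries were used. Without FSL vehicle 2 the log2 difference was 0.44 in responders and 0.49 in non-responders over FSL vehicle, and -0.51 in FSL vehicle over FRL vehicle, each at an unadjusted p under 0.05, with adjusted p of 0.185, 0.501 and 0.182 by edgeR. Without FSL vehicle 3 the same differences shrank to 0.075, 0.14 and -0.14, and without non-responder 1 that of non-responders over FSL vehicle was 0.11. Without non-responder 1 and FSL vehicle 1 and 3 together, the libraries richest in choroid plexus markers, all 3 turned sign, to -0.079, -0.20 and 0.0093, with FSL vehicle 2 alone in its group. The 2 FSL vehicle libraries that remain without FSL vehicle 2, namely 1 and 3, are the ones with choroid plexus markers at 3747 and 456 CPM, and the part of these markers in the Bdnf values was not tested. In bulk tissue, fewer cells of a type and less RNA per cell cannot be told apart.

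Ntf3, the ligand of Ntrk3 and a gene of dentate granule neurons in rodents, varied more between libraries than the other 5 genes. It was measured at 2.2, 9.79 and 15.9 CPM in responders 1 to 3, from 18, 79 and 118 counts, and at 10.2, 12 and 8.48 CPM in non-responders. FSL vehicle had 10.7, 7.48 and 8.96 CPM, and FRL vehicle had 13, 2.53 and 12.3 CPM. Responder 1 and FRL vehicle 2, in different groups, were low, and the other 10 libraries lay between 7.48 and 15.9 CPM. The 18 counts of responder 1 have an exact Poisson interval of 10.7 to 28.4 counts, which stays below the 58 counts of the next lowest library after FRL vehicle 2, which had 19 counts. Means were 9.31 ± 6.87 CPM in responders, 10.2 ± 1.76 CPM in non-responders, 9.05 ± 1.62 CPM in FSL vehicle and 9.27 ± 5.84 CPM in FRL vehicle (SD, n = 3 each), and the 4 means differed by less than these spreads.

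The libraries low in Ntf3 were those low in the granule neuron markers Prox1 and C1ql2. C1ql2, a secreted synaptic protein of granule neurons, and Prox1, the transcription factor that sets granule neuron identity, were the genes whose log2 CPM followed Ntf3 most closely, with Pearson r of 0.970 and 0.961 over 12 libraries. The third was the olfactory receptor gene Olr1462, at r = 0.958 and only 0 to 3.08 CPM. Without responder 1 and FRL vehicle 2, r fell to 0.696 for C1ql2, 0.598 for Prox1 and 0.590 for Olr1462, so the likeness rests largely on those 2 libraries. The libraries share a pool and a scaling, and these correlations are descriptions with no test. Not every granule neuron marker was low there. Calb1, a calcium buffer of granule and CA1 neurons, was at 192 CPM in responder 1 and 120 CPM in FRL vehicle 2, within the 89.4 to 204 CPM of the other 10. Stxbp6 was at 51.6 and 48.7 CPM there, against 33.5 to 59.7 CPM in the other 10. Pdzd2 was at 94.1 and 80.9 CPM, against 60.8 to 119 CPM. Trpc6 was at 16.5 and 42.3 CPM, against 45.2 to 61.7 CPM, and so far down only in responder 1. Tdo2 was at 0 to 0.14 CPM in all 12 libraries. Lct, not tested, ranged from 0.129 to 2.4 CPM and was highest in FRL vehicle 2. The 8 granule neuron markers in the files summed to 367 CPM in responder 1 and 309.5 CPM in FRL vehicle 2, against 412 to 550 CPM elsewhere. The part of tissue content in the Ntf3 values was not tested.

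**Figure D2:**
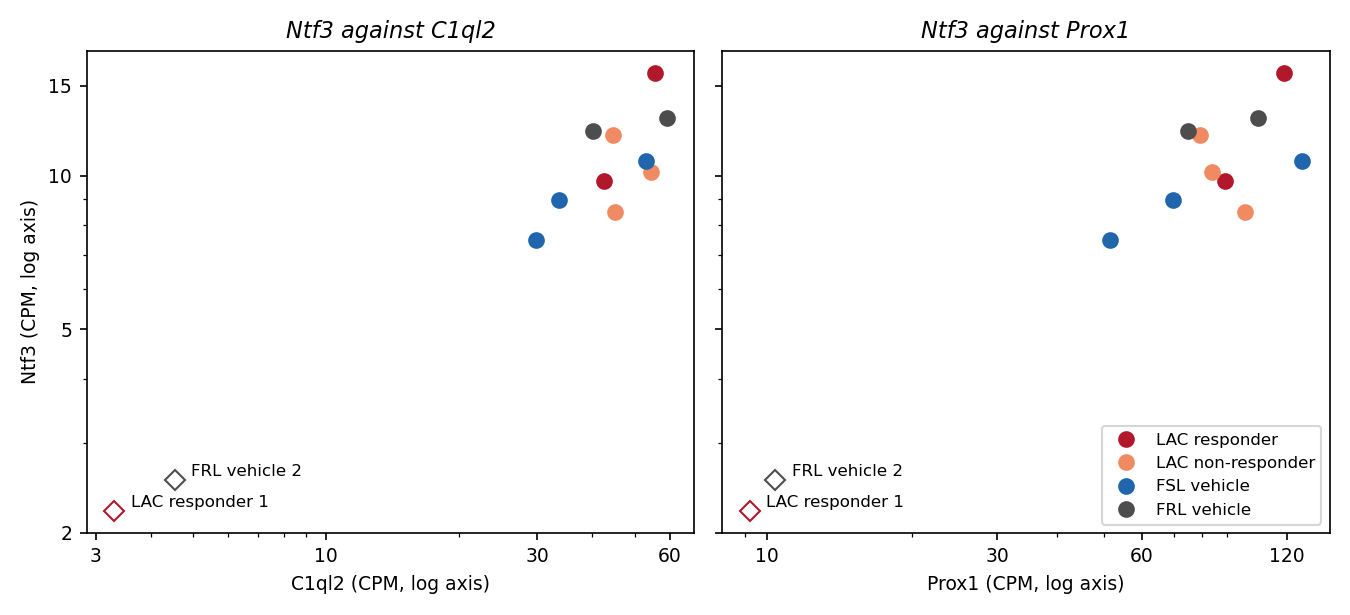
Ntf3 against the granule neuron markers Prox1 and C1ql2 in CPM on logarithmic axes, with 1 point per library, open diamonds for the 2 libraries low in the markers and colour by group. Responder 1 and FRL vehicle 2 lie at the low end of both axes in both panels, away from the other 10 libraries.

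Ntf3 showed log2 differences of 0.038 ± 0.62 in responders over FSL vehicle, 0.18 ± 0.62 in non-responders over FSL vehicle, -0.14 ± 0.62 in responders over non-responders and -0.031 ± 0.63 in FSL vehicle over FRL vehicle (SE), with adjusted p from 0.984 to 0.996 by edgeR. The 95% interval of the first ran from -1.34 to 1.41, which reaches up to a 2.66-fold higher level. Its biological coefficient of variation (BCV), the spread between libraries of a group beyond counting error, was 52.2% over 12 libraries and 19.8% without the 2 low ones. Those 2 were left out for their Prox1 and C1ql2 levels. Ntf3 was then 0.51 ± 0.25 (-0.051 to 1.06) in responders over FSL vehicle, adjusted p = 0.459 by edgeR. In FSL vehicle over FRL vehicle it was -0.48 ± 0.25 (-1.04 to 0.079), adjusted p = 0.563 by edgeR. Responders over non-responders then stood at 0.33 ± 0.25, of the opposite sign to the value over all libraries, and non-responders over FSL vehicle at 0.17 ± 0.23.

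Ntrk2, the receptor of Bdnf, was the steadiest of the 6 genes, with a BCV of 9.63%. Responders had 959, 898 and 859 CPM and non-responders 837, 839.6 and 888 CPM. FSL vehicle had 979, 783 and 801 CPM and FRL vehicle 935, 989 and 980.5 CPM. FRL vehicle was high in all 3 libraries, while FSL vehicle held both the 2 lowest libraries and, in FSL vehicle 1, 1 of the highest, which made these groups overlap. Means were 905.5 ± 50.3 CPM in responders, 855 ± 28.9 CPM in non-responders, 854.2 ± 108.5 CPM in FSL vehicle and 968.2 ± 29.4 CPM in FRL vehicle (SD, n = 3 each). The gap between FRL vehicle and responders was larger than both SDs, but the ranges of each pair of neighbours in the order of the means overlapped. FRL vehicle, at 935 to 989 CPM, lay wholly above non-responders, at 837 to 888 CPM, a pair that was not compared by a test.

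The smallest p of any of the 6 genes was that of Ntrk2 in FSL vehicle against FRL vehicle, at a log2 difference of -0.18 ± 0.09 (SE; 95% interval -0.38 to 0.023), unadjusted p = 0.0771 and adjusted p = 0.414 by edgeR. Responders over FSL vehicle gave 0.084 ± 0.09 and responders over non-responders 0.083 ± 0.09, with adjusted p of 0.704 and 0.992. Non-responders over FSL vehicle gave 0.0015 ± 0.09 (-0.20 to 0.21), which leaves changes beyond 1.15-fold up or 0.869-fold down outside the interval. The size of these differences moved with the FSL vehicle libraries. Without FSL vehicle 1 Ntrk2 was at -0.29 in FSL vehicle over FRL vehicle, unadjusted p = 0.0042 and adjusted p = 0.0784, and at 0.20 in responders over FSL vehicle, adjusted p = 0.252, both by edgeR. Without FSL vehicle 2 they were -0.12 and 0.027, and without FSL vehicle 3 they were -0.13 and 0.035. With a meningeal marker covariate responders over FSL vehicle stood at 0.0017. FSL vehicle 1 is the FSL vehicle library with the highest choroid plexus sum, and FSL vehicle 2 and 3, which remain, are those with the highest meningeal sums. Their part in the Ntrk2 values was not tested. Gene counts add up the full-length kinase form of Ntrk2 and its truncated forms, the main form in astrocytes, so a shift between them would not be seen. The same holds for Ntrk3.

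Ntrk3, the receptor of Ntf3, was measured at 109, 143 and 167 CPM in responders and at 143, 140.0 and 156 CPM in non-responders. FSL vehicle had 176, 113.5 and 156.5 CPM, and FRL vehicle had 164, 122 and 169 CPM. Each group except non-responders held 1 low library, responder 1, FSL vehicle 2 or FRL vehicle 2, and all groups overlapped. Means were 139.5 ± 28.9 CPM in responders, 146.5 ± 8.45 CPM in non-responders, 148.7 ± 31.9 CPM in FSL vehicle and 151.4 ± 25.7 CPM in FRL vehicle (SD, n = 3 each). The log2 difference was -0.09 ± 0.19 in responders over FSL vehicle, -0.020 ± 0.19 in non-responders over FSL vehicle, -0.071 ± 0.19 in responders over non-responders and -0.027 ± 0.19 in FSL vehicle over FRL vehicle (SE), with adjusted p from 0.847 to 0.9996 by edgeR. Over all 4 comparisons the 95% intervals stayed between 0.706-fold and 1.31-fold.

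Ngfr, the p75 receptor, lay close to the floor. It was measured at 2.08, 1.98 and 1.08 CPM in responders, at 1.58, 1.85 and 1.55 CPM in non-responders, at 2.44, 0.387 and 1.96 CPM in FSL vehicle and at 1.80, 2.0 and 1.87 CPM in FRL vehicle. The counts behind these levels were 3 to 17 per library, and the 3 counts of FSL vehicle 2 equal the floor, with an exact Poisson interval of 0.619 to 8.77 counts. The means of 1.72 ± 0.553 CPM in responders, 1.66 ± 0.161 CPM in non-responders, 1.59 ± 1.07 CPM in FSL vehicle and 1.89 ± 0.101 CPM in FRL vehicle (SD, n = 3 each) differed by less than the widest of these spreads. Responders over FSL vehicle stood at a log2 difference of 0.14 ± 0.50 (-0.95 to 1.23) and FSL vehicle over FRL vehicle at -0.27 ± 0.50 (-1.37 to 0.82), adjusted p = 0.914 and 0.857 by edgeR. Both intervals include a change of Ngfr by a factor of 1.5 in either direction.

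Vgf was measured at 81.6, 66.4 and 49.7 CPM in responders and at 55.9, 50.5 and 58.9 CPM in non-responders. FSL vehicle had 72.1, 75.1 and 54.9 CPM, and FRL vehicle had 49.7, 78.1 and 82.5 CPM. Non-responders were low in all 3 libraries, but at least 1 library of each other group was as low. Means were 65.9 ± 16.0 CPM in responders, 55.1 ± 4.28 CPM in non-responders, 67.3 ± 10.9 CPM in FSL vehicle and 70.1 ± 17.8 CPM in FRL vehicle (SD, n = 3 each). On the log2 scale the 2 largest differences were -0.29 ± 0.21 (-0.76 to 0.18) in non-responders over FSL vehicle and 0.26 ± 0.21 (-0.21 to 0.73) in responders over non-responders, with adjusted p of 0.976 and 0.992 by edgeR. Without responder 1 the difference between responders and non-responders was 0.077, and without responder 3 it was 0.41. Responders over FSL vehicle gave -0.030 ± 0.21, and FSL vehicle over FRL vehicle gave -0.055 ± 0.21.

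**Figure D3:**
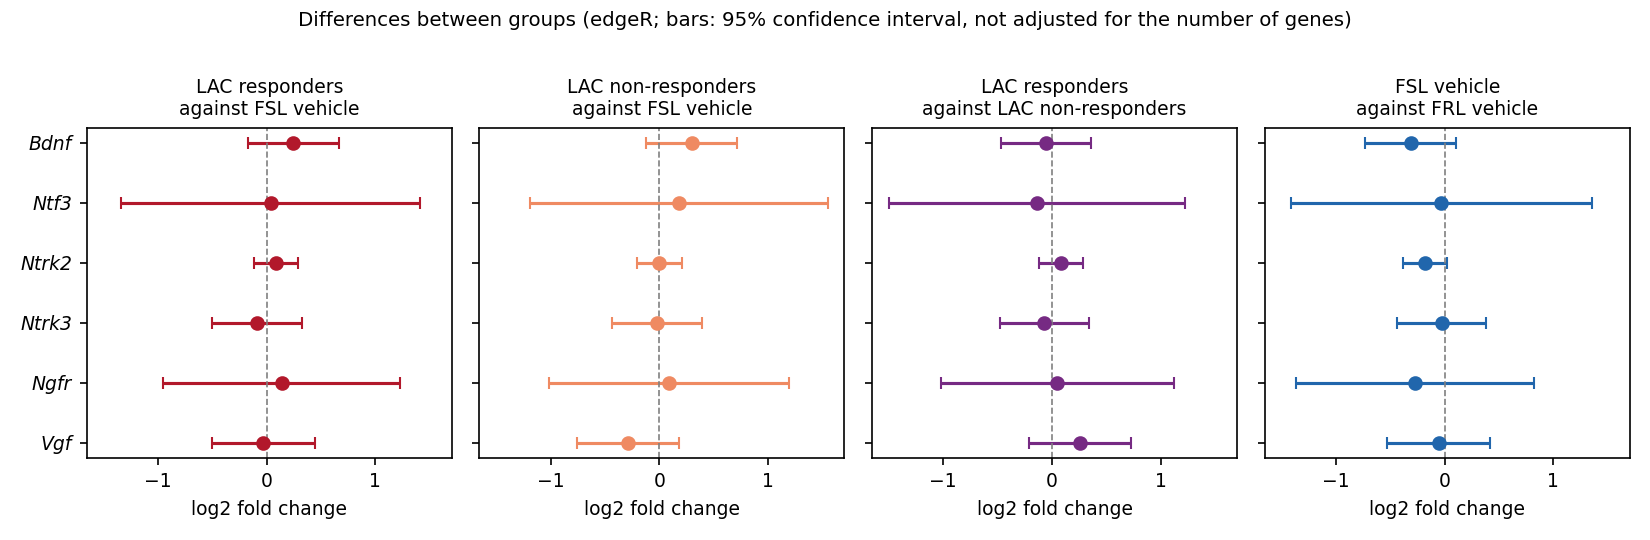
Log2 fold change of each of the 6 genes in the 4 comparisons, the first-named group over the second, with points for the edgeR estimates and bars for their 95% intervals. Every interval crosses 0, and those of Ntf3 and Ngfr are the widest.

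The direction of the fitted differences was mixed under LAC and uniform between the lines, without a call in either. In responders over FSL vehicle 4 of 6 genes were above 0, against 52% of all genes, and in non-responders over FSL vehicle 4 of 6, against 48.9%. In responders over non-responders 3 of 6 were above 0, against 50.3%. In FSL vehicle over FRL vehicle all 6 were below 0, against 51.6% of all genes, with a median of -0.12 on the log2 scale against -0.0083 over all genes. With library sizes taken as total gene counts, Ntf3 and Ntrk3 turned to 0.015 and 0.022 there. With 1 library left out at a time, Ntf3, Ntrk3, Ngfr and Vgf reached up to 0.32, 0.13, 0.21 and 0.078. The uniform direction thus depends on the scaling and on the libraries used.

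Among the 12 libraries the 6 genes did not vary as 1 block. Of the 15 pairs, none passed after Benjamini-Hochberg adjustment of two-sided permutation tests (100000 resamples) of Pearson's r on log2 CPM. The closest pair was the ligand Ntf3 and its receptor Ntrk3, at r = 0.788 (p = 0.00402, adjusted p = 0.0603) and Spearman's rho = 0.748 (p = 0.00704, adjusted p = 0.106). Without responder 1 and FRL vehicle 2 this r was 0.610. Some pairs of receptors rose without the same 2 libraries. Ntrk2 and Ntrk3 then stood at r = 0.74, against 0.14 over all 12, and Ntrk3 and Ngfr at 0.72, against 0.33. Ntrk2 and Ngfr then stood at 0.61. By contrast, Ntrk2 and Ntrk3 stood at -0.082 without FSL vehicle 2 and 3. Ntrk3 and Ngfr stood at -0.093 without responder 1 and FSL vehicle 2. Values with libraries left out carry no test. Ntrk2 and Ngfr stood at r = 0.638 (p = 0.00992, adjusted p = 0.0744), and at 0.644 without FSL vehicle 2 and 3. Ntf3 and Vgf ran in opposite directions at r = -0.626 (p = 0.0182, adjusted p = 0.0912), and at -0.410 without responder 1 and FRL vehicle 2. Bdnf and its receptor Ntrk2 stood at r = 0.054 (adjusted p = 0.972), and Bdnf and Vgf at r = -0.11 (adjusted p = 0.928), both by the same permutation test.

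The genes that followed each of the 6 most closely were picked from all 11750 tested. In so wide a search, closer matches than among the other 5 genes would be found in almost any case. Bdnf ran with the cochaperone gene Dnaja4 (r = 0.960), the calmodulin gene Calm3 (r = 0.949) and Nudt3 (r = 0.939), and r stayed at 0.887 to 0.922 without FSL vehicle 3 and non-responder 1, the libraries farthest from its median. Ntrk2 ran with Zfp583 (r = 0.920), the activin receptor gene Acvr1b (r = 0.907) and Pacsin1 (r = 0.905), an endocytosis gene of neurons. Ntrk3 ran with Sez6l (r = 0.975), Camta2 (r = 0.965) and the potassium channel gene Kcnj6 (r = 0.961), each still at r of 0.907 to 0.946 without responder 1 and FSL vehicle 2. Vgf ran with March11 (r = 0.937), the receptor phosphatase gene Ptprt (r = 0.900) and the synaptic vesicle priming gene Unc13b (r = 0.885). For Ngfr, r with RGD1312005 and Vwa5b2 was 0.903 and 0.895, but 0.679 and 0.447 without FSL vehicle 2 and responder 3. These are among the 3 highest of 11750 correlations over 12 shared libraries for each gene, and they carry no test.

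The wider pathway was followed in 7 lists that hold 105 genes, 100 of them in the files and 93 tested. None of the 93 passed an adjusted p of 0.05 by edgeR in any of the 4 comparisons. At an unadjusted p under 0.05 there were 12 in responders against FSL vehicle (background 13.8%), 5 in non-responders against FSL vehicle (4.21%), 4 in responders against non-responders (3.14%) and 7 in FSL vehicle against FRL vehicle (13.9%). The genes given for each list are among the 2 with the smallest p in each comparison, none of which passed in the main test. Their values against FSL vehicle share its 3 libraries with the line comparison.

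Among other ligands and receptors, neurotrophin-4 (Ntf4), which like Bdnf acts through Ntrk2, had 0 to 0.42 CPM and was not tested. Sortilin (Sort1), the coreceptor of p75, averaged 1068 ± 46.6 CPM in responders and 1066 ± 79.4 CPM in non-responders, against 919 ± 100 CPM in FSL vehicle (SD, n = 3 each), without overlap. Its log2 differences were 0.22 ± 0.11 and 0.21 ± 0.11 over FSL vehicle, and -0.19 ± 0.11 in FSL vehicle over FRL vehicle, with adjusted p of 0.401, 0.976 and 0.453 by edgeR. The sortilin relatives Sorcs3 in responders over FSL vehicle, Sorcs2 in responders over non-responders and Sorl1 in FSL vehicle over FRL vehicle stood at -0.21 ± 0.10, 0.30 ± 0.17 and -0.28 ± 0.20.

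Of 10 tested genes of proneurotrophin processing, the neuroendocrine convertase Pcsk2 had the smallest p in 3 comparisons. It averaged 304.5 ± 8.57 CPM in responders and 303.5 ± 33.1 CPM in non-responders, against 257 ± 24.7 CPM in FSL vehicle, which in turn stood against 322 ± 24.7 CPM in FRL vehicle (SD, n = 3 each). The log2 differences were 0.25 ± 0.10, 0.24 ± 0.10 and -0.33 ± 0.10, with adjusted p of 0.322, 0.976 and 0.251 by edgeR. Tissue plasminogen activator (Plat), which generates plasmin, a protease that cleaves pro-Bdnf, was at -0.42 ± 0.18 in responders over FSL vehicle, and Furin, another proneurotrophin protease, at -0.26 ± 0.12 in non-responders over FSL vehicle. Pcsk1, a convertase of neuroendocrine cells and neurons, was at 0.33 ± 0.26 in responders over non-responders.

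Of 27 tested genes of Trk signalling, the adaptor Shc1 was at 19.7, 19.3 and 16.9 CPM in responders and at 18.8, 29.9 and 54.5 CPM in FSL vehicle, with the highest value in the library richest in meningeal markers. Its log2 difference was -0.89 ± 0.31, adjusted p = 0.282 by edgeR, and without FSL vehicle 1 it was -1.17, adjusted p = 0.0357. The neuronal adaptor Shc3 stood at -0.37 ± 0.13 in non-responders over FSL vehicle and 0.35 ± 0.13 in responders over non-responders, where Shc2 stood at 0.21 ± 0.09. The phosphatase Ptpn11 stood at 0.30 ± 0.13 in responders and 0.32 ± 0.13 in non-responders, both over FSL vehicle without overlap. In FSL vehicle over FRL vehicle the adaptor Grb2 stood at -0.16 ± 0.06 and the kinase subunit Pik3ca at -0.16 ± 0.07, both without overlap, with adjusted p of 0.293 and 0.365 by edgeR.

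Of 13 tested genes of p75 signalling, Nogo (Rtn4), the myelin and neuronal protein whose receptor complex includes p75, had the smallest p. It was at 886.5, 816 and 815 CPM in responders, 807, 749 and 763 CPM in non-responders and 697, 685 and 567 CPM in FSL vehicle. All responder libraries lay above all non-responder libraries, and those above all FSL vehicle libraries. The log2 difference over FSL vehicle was 0.37 ± 0.09 in responders, adjusted p = 0.266 by edgeR, and 0.25 ± 0.09 in non-responders, adjusted p = 0.976. Rtn4 in responders over FSL vehicle did pass by DESeq2, at an adjusted p of 0.0102, and by edgeR without FSL vehicle 1, at an adjusted p of 0.048. DESeq2 called 181 of 11750 genes in that comparison. It also called Rtn4 in the joint test of the 4 groups, at an adjusted p of 0.0364, among 184 genes. Oligodendrocyte markers summed to 5863 to 10980 CPM in responders and 7410 to 12180 CPM in non-responders, against 4299 to 5955 CPM in FSL vehicle, and their part in the Rtn4 values was not tested. FSL vehicle over FRL vehicle stood at -0.23 ± 0.09 for Rtn4 and 0.21 ± 0.09 for the small GTPase Rhoa, which was at -0.23 ± 0.09 in responders and -0.13 ± 0.09 in non-responders over FSL vehicle. In responders over non-responders the p75-interacting gene Ngfrap1 stood at 0.19 ± 0.12 and the Nogo coreceptor Lingo1 at 0.23 ± 0.16.

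Of 15 tested regulators of Bdnf transcription, the kinase Camk4, which activates CREB, was at 97.4, 77.0 and 81.5 CPM in responders, against 65.2, 68.4 and 55.1 CPM in non-responders and 56.8, 66.3 and 63.4 CPM in FSL vehicle. Responders lay above both other groups, with log2 differences of 0.46 ± 0.18 over FSL vehicle and 0.44 ± 0.18 over non-responders, adjusted p = 0.314 and 0.992 by edgeR. FSL vehicle over FRL vehicle stood at -0.37 ± 0.18. The repressor Rest stood at -0.47 ± 0.19 in responders and -0.41 ± 0.19 in non-responders over FSL vehicle, and at 0.50 ± 0.19 in FSL vehicle over FRL vehicle. All of these hold FSL vehicle 3, where Rest was at 27.0 CPM against 12.96 to 17.9 CPM in the other 11 libraries. Arnt2, the partner of Npas4, stood at -0.21 ± 0.13 in non-responders over FSL vehicle, and the CREB coactivator Crtc1 at -0.25 ± 0.22 in responders over non-responders.

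Of 14 tested genes that respond to activity and Bdnf, none had an unadjusted p under 0.05 in any comparison by edgeR. Spry4, an inhibitor of growth factor signalling, stood at 0.25 ± 0.15 in responders over FSL vehicle and 0.30 ± 0.15 over non-responders. Nptx2, a synaptic pentraxin, stood at 0.59 ± 0.37 in responders over FSL vehicle, with 78.4 CPM in responder 1 against 19.8 to 39.3 CPM in the other 11 libraries. Among the immediate early genes, Nr4a1 and Egr1 stood at -0.46 ± 0.31 and -0.38 ± 0.29 in non-responders over FSL vehicle, Egr2 at 1.02 ± 0.72 in responders over non-responders, and Egr3 at -0.21 ± 0.14 in FSL vehicle over FRL vehicle, where Homer1 stood at -0.30 ± 0.17. Neuropeptide Y (Npy) had 0 counts in all 12 libraries and was not tested. The annotation behind the counts was not stated, so this cannot be read as a lack of Npy expression.

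Of 7 tested granin and secretory granule genes, the class of proteins stored with Vgf, chromogranin B (Chgb) had the smallest p. It was at 491.5, 565 and 670.1 CPM in responders, 660.4, 534 and 559 CPM in non-responders, 458.5, 411 and 393 CPM in FSL vehicle, and 580.4, 517 and 643 CPM in FRL vehicle. FSL vehicle lay below each of the other groups with no overlap. The log2 differences were 0.45 ± 0.13 in responders and 0.47 ± 0.13 in non-responders over FSL vehicle, and -0.46 ± 0.13 in FSL vehicle over FRL vehicle, with adjusted p of 0.266, 0.976 and 0.245 by edgeR. Chromogranin A (Chga) averaged 117 ± 10.5 CPM in responders, against 92.9 ± 9.77 CPM in non-responders and 90.2 ± 10.7 CPM in FSL vehicle (SD, n = 3 each). Its log2 differences were 0.37 ± 0.12 over FSL vehicle and 0.33 ± 0.11 over non-responders, adjusted p = 0.266 and 0.992 by edgeR. Scg2 stood at 0.20 ± 0.19 in non-responders over FSL vehicle, and Scg5 at 0.13 ± 0.12 in responders over non-responders and -0.23 ± 0.12 in FSL vehicle over FRL vehicle.

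Read as groups, the 7 granin and granule genes had a median log2 difference of 0.23 in responders over FSL vehicle, with 6 of 7 above 0 against 52% of all genes, and of -0.18 in FSL vehicle over FRL vehicle, with 0 of 7 above 0, where 51.6% of all genes were below 0. The corresponding medians over all genes were 0.012 and -0.0083. The granin medians were 0.094 in non-responders over FSL vehicle, also with 6 of 7 above 0 against 48.9% of all genes, and 0.024 in responders over non-responders, with 4 of 7 above 0 against 50.3%. Proneurotrophin processing lay the other way, with medians of -0.25 in responders over FSL vehicle, 4 of 10 above 0, and 0.18 in FSL vehicle over FRL vehicle, 8 of 10 above 0. Other ligands and receptors had medians of 0.17 and -0.15 in these comparisons, with 6 of 7 and 1 of 7 above 0. Activity genes had medians of 0.10 and -0.16, and Bdnf regulators of -0.062 and -0.033. Trk signalling had medians of 0.037 and -0.083, and p75 signalling of 0.0051 and -0.054. FSL vehicle 3 had the lowest sum of the granin list, 3087 CPM, and the highest meningeal sum, and the part of meningeal tissue in the list was not tested.

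**Figure D4:**
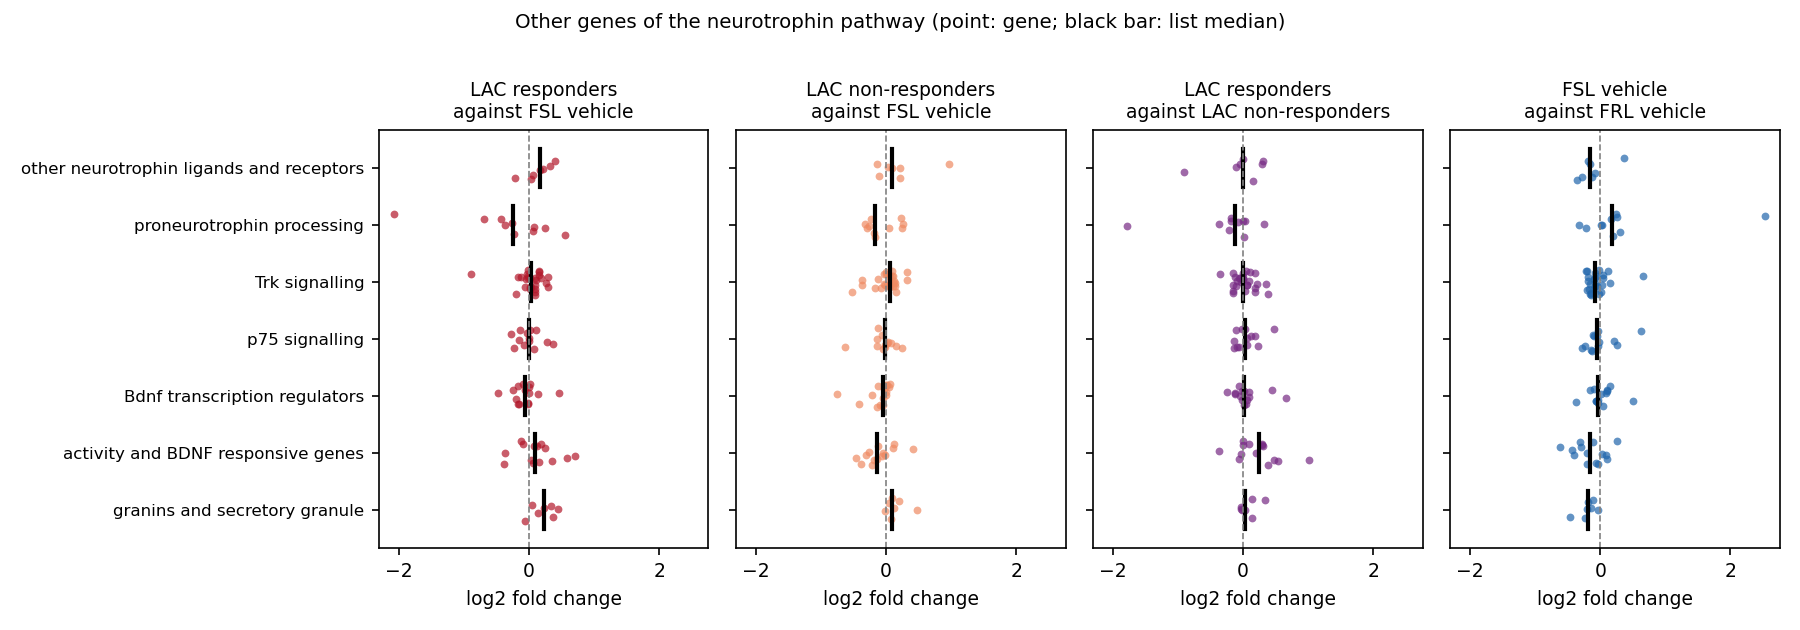
Log2 fold changes of the 93 tested pathway genes by list and comparison, with 1 point per gene and a black bar at the median of each list. No point passed an adjusted p of 0.05, and the granin list is the one with 0 of 7 points above 0 in FSL vehicle over FRL vehicle.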

How the data were processed

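Ventral dentate gyrus RNA of 12 libraries was depleted of ribosomal RNA, made into stranded libraries and read as single 100-base reads, per the labels. The deposited values are raw read counts per gene symbol for 17172 genes. Per the submitters' processing notes, TopHat2 (version 2.0.9) and HTSeq (0.6.1) were used on build rn5, beside FastQC (0.11.3), Trimmomatic (0.33) and an earlier edgeR (3.12.0). Neither the gene annotation nor the strand setting behind the counts was stated in these sources, so reads of a gene and of a gene that overlaps it, on either strand, cannot be told apart. The 5 summary lines per library were left out: reads outside genes (47.7% to 52.7%), ambiguous reads (0.0756% to 0.106%) and reads aligned to several places (24.3% to 28.4%) among them. Genes with close copies are therefore counted too low.

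From the counts, edgeR 4.0.16 in R 4.3.3 gave TMM factors (0.975 to 1.04), the default filter by group (11750 genes kept) and robust quasi-likelihood F tests, which are two-sided. The fit held 4 group means over the 12 libraries. P-values were adjusted over all genes tested by the Benjamini-Hochberg method, with a threshold of 0.05. Standard errors and 95% intervals come from this fit. Correlations use log2 CPM with a prior count of 2, except those of pairs among the 6 genes. Those pairs use log2 CPM with a small constant added to each CPM. The scripts were tested on simulated data. DESeq2 1.42.0 and limma-voom (limma 3.58.1) served as alternatives, with other scalings, no filter, marker covariates, the compared groups only, a replicate block and each library left out. An edgeR version 4 fit and a paired fit of FSL vehicle and non-responders alone were added after seeing the data. The libraries are described as biological replicates, per the labels, with no number of rats for each. The p-values therefore set group differences against the spread between these libraries, and not between a known number of rats. The labels give every group the numbers 1 to 3 and name no pairing. Same-numbered non-responder and FSL vehicle libraries deviated together from their group means (r = 0.581, 0.212 and 0.426), above the limit of 0.1 for all 3 numbers, which held for no other pair of groups.

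The 6 genes and the lists were chosen with earlier results of these data known. The text names the 6 genes, the 2 genes of each pathway list with the smallest p per comparison (all that pass, up to 5, where any do), the 3 genes most correlated with each of the 6, and marker genes of summed lists. Some genes that this rule names are not reported here. Other named genes were chosen after their values were seen. Rapgef1, Braf, Crtc3, Mef2c and Cadps2 were listed but not analysed here, and Bex3 was matched as Ngfrap1.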

Additional observations from a re-analysis of the deposited data

How the results depend on the processing

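No member passed the threshold in any comparison under any alternative. Pathway genes past it in responders against FSL vehicle numbered 0 in the main test, 1 with DESeq2 (Rtn4) and 0 to 2 with 1 library left out, the 2 (Rtn4 and Shc1) coming without FSL vehicle 1. In the other 3 comparisons the count of pathway genes was 0 throughout, and in the joint test of the 4 groups DESeq2 called Rtn4. The replicate block left the counts of members and of pathway genes at 0 in the 4 comparisons and changed no call. The added version 4 edgeR fit reversed no sign.

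No fitted log2 difference whose sign turned had passed the threshold, and the cause of the turns was not tested. In responders over FSL vehicle, Ntf3 (0.038 in the main fit) stood at -0.0093 with total gene counts, -0.37 with limma-voom, -0.015 with the replicate block and -0.76 with a meningeal marker covariate. Bdnf (0.24) stood at -0.078 with that covariate and -0.079 with the 3 libraries richest in choroid plexus markers left out. Ntrk3 (-0.09) stood at 0.0063 with a granule neuron marker covariate and 0.29 without the choroid-rich 3. Without the 2 libraries low in Prox1 and C1ql2, called the granule-poor 2 below, Ntrk3 stood at 0.055. Ngfr (0.14) stood at -0.027 without the granule-poor 2. In non-responders over FSL vehicle, Ntrk2 (0.0015) stood at -0.0036 with DESeq2 size factors, -0.031 with total gene counts, -0.0033 with DESeq2, -0.0086 with the compared groups only, -0.025 with the meningeal covariate, -0.0026 without the granule-poor 2 and -0.0021 in the added paired fit with a replicate block. Ntrk3 stood at 0.0017 with limma-voom and 0.39 without the choroid-rich 3, Ntf3 at -0.072 with the meningeal covariate, and Bdnf at -0.20 without the choroid-rich 3.

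In responders over non-responders, the granule covariate gave 0.0017 for Bdnf, 0.048 for Ntf3 and 0.043 for Ntrk3. Leaving out the granule-poor 2 gave 0.043 for Bdnf, 0.33 for Ntf3, 0.081 for Ntrk3 and -0.11 for Ngfr. Ngfr stood at -0.0042 with the meningeal covariate and Bdnf at 0.12 without the choroid-rich 3. In FSL vehicle over FRL vehicle, Ntf3 stood at 0.015 with total gene counts, 0.29 with limma-voom, 0.024 with the replicate block and 0.57 with the meningeal covariate. Ntrk3 stood at 0.022 with total gene counts and 0.16 with the meningeal covariate. Vgf stood at 0.049 with the granule covariate, 0.033 without the granule-poor 2 and 0.11 without the choroid-rich 3, which also gave 0.0093 for Bdnf. Leaving out the choroid-rich 3 leaves FSL vehicle 2 as the only library of its group, assumed to vary like the others. Ngfr, at the floor there, then stood at 2.10 and 2.09 in responders and non-responders over it and at -2.24 over FRL vehicle, adjusted p of 0.188 to 0.338 by edgeR.

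With 1 library left out at a time, signs also turned. In responders over FSL vehicle the ranges were -0.60 to 0.51 for Ntf3, -0.25 to 0.060 for Ntrk3, -0.34 to 0.57 for Ngfr and -0.21 to 0.12 for Vgf. In non-responders over FSL vehicle they were -0.057 to 0.11 for Ntrk2, -0.18 to 0.12 for Ntrk3 and -0.39 to 0.52 for Ngfr. In responders over non-responders they were -0.18 to 0.12 for Bdnf, -0.77 to 0.33 for Ntf3, -0.23 to 0.080 for Ntrk3 and -0.11 to 0.28 for Ngfr. In FSL vehicle over FRL vehicle they were -0.48 to 0.32 for Ntf3, -0.17 to 0.13 for Ntrk3, -0.70 to 0.21 for Ngfr and -0.25 to 0.078 for Vgf. Ranges that kept their sign but moved by over 1.5 times include 0.075 to 0.44 in responders, 0.11 to 0.49 in non-responders and -0.51 to -0.14 in the line comparison for Bdnf, 0.077 to 0.41 in responders over non-responders for Vgf, and 0.027 to 0.20 in responders over FSL vehicle for Ntrk2. Ngfr had only 3 to 17 counts per library and a BCV of 31.0%, and Ntf3 a BCV of 52.2%.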

Other observations

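Responder 1 and FRL vehicle 2, the libraries low in Ntf3, Prox1 and C1ql2, were also the highest in the activity-induced transcription factors Fos and Egr2, a pattern singled out after the values were seen and across 2 different groups. Fos reached 54.9 CPM in responder 1 and, in FRL vehicle 2, 64.7 CPM, against 19.9 to 41.8 CPM in the other 10 libraries. Egr2 was at 21.8 and 26.4 CPM there, against 2.19 to 10.3 CPM elsewhere. Npas4, an activity-induced factor that acts on Bdnf promoters, stood at 23.2 CPM in responder 1 and at 36.1 CPM in FRL vehicle 2, but FSL vehicle 2, with 27.1 CPM, lay between them. Arc, a synaptic immediate early gene, reached 259 CPM in FRL vehicle 2 but only 121 CPM in responder 1, against 100.0 to 175 CPM elsewhere. Nr4a1, Egr1, Fosb and Egr3 were also highest in FRL vehicle 2, at 108, 73.6, 16.4 and 23.6 CPM. In responder 1 they were at 45.5, 40.4, 9.43 and 17.3 CPM, within the range of the other 10 libraries. Junb and Dusp6 were highest in both, at 87.6 and 76.7 CPM in responder 1 and 119.5 and 81.1 CPM in FRL vehicle 2. No other listed activity gene was highest in both. Bdnf did not stand out in these 2 libraries, with 52.8 CPM in responder 1 and 59.7 CPM in FRL vehicle 2 against 39.3 to 79.2 CPM elsewhere, whereas Vgf was at 81.6 and 78.1 CPM, next to 82.5 CPM in FRL vehicle 3 and 49.7 to 75.1 CPM in the other 9 libraries. Thalamic markers summed to 464.5 CPM in responder 1, mostly from Slc17a6 and Tcf7l2, but to 84.8 CPM in FRL vehicle 2.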
